A study of Mus musculus with 16 samples.

Results

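The 10 blood clotting genes followed here comprise 7 that encode coagulation factors (F2, F5, F7, F9, F10, F11 and F12) and 3 that encode inhibitors of clotting (Proc, Pros1 and Serpinc1). Their probes were found by matching the transcript accession that the scanner files give for each probe to a RefSeq gene symbol, which gave 13 of the 55681 probes of the array. F5, F7 and F10 had 2 probes each. The samples were livers of female B6C3F1 mice, bought at 5 to 6 weeks of age and gavaged for 21 days with furan at 8 mg/kg body weight in corn oil or with corn oil alone, and taken 4 h after the last dose. Furan is a small volatile food contaminant that is toxic to the liver of rodents. Liver samples were preserved in formalin for 18 h or for 3 weeks and then embedded in paraffin. There were 4 furan and 4 corn oil samples at 18 h, and 4 furan and 3 corn oil samples at 3 weeks. Sample numbers 2, 4, 6 and 41 to 44 occur at both times, and whether they mark the same animals was not settled. Livers are counted per sample below. RNA came from 1 section of 10 µm per liver at 18 h and from 2 such sections at 3 weeks, so the time in formalin and the number of sections cannot be told apart. Per the labels the RNA integrity numbers lay between 1.3 and 2.4, which is the range of strongly degraded RNA. Each array set 1 liver sample, labelled with Cy5, against a pool of all samples, labelled with Cy3, and every value below is a log2 ratio of sample over pool, so that 0 is the level of the pool.

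Clotting runs through a chain of serine proteases that circulate as inactive precursors and activate each other on membrane surfaces, ending with thrombin, which turns fibrinogen into fibrin. Hepatocytes make most of these precursors, and also make antithrombin and protein C, the inhibitors that hold the chain in check. F2, F7, F9 and F10, together with protein C and its cofactor protein S, depend on vitamin K for a modification that lets them bind calcium and membranes.

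All 13 member probes passed the filter on dim probes and were tested among 29690 probes. Of these, 12 were well above background on all 16 arrays, and the F11 probe fell short of that mark on 3 arrays fixed for 3 weeks, namely corn oil arrays 2.1 and 2.2 and furan sample 42. The share of all probes well above background lay between 51.9% and 55.2% in furan livers and between 44.3% and 50.1% in corn oil livers at 18 h, ranges that did not overlap (exact two-sided permutation test, p = 0.0286, the smallest 4 against 4 can give). At 3 weeks the share was 35.9% to 41.4% in furan livers and 32.3% to 36.7% in corn oil livers. The 8 hepatocyte markers (Alb, Ttr, Apoa1, Apoa2, Serpina1e, Cps1, Tat and Ahsg) were above background on every array, and 3 of 6 platelet and megakaryocyte markers (Pf4, Ppbp and Gp9) were too dim to be tested. Samples of 1 group correlated with each other at a median r between 0.84 and 0.86 over the tested probes, and no array stood apart from its group. In bulk tissue, fewer hepatocytes and less of a transcript per hepatocyte cannot be told apart.

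In livers fixed for 18 h, furan went with lower transcripts of several procoagulant factors. Both F7 probes were about 2-fold lower, F5 up to 1.85-fold, F9 1.59-fold and F11 1.47-fold, and Pros1, a cofactor of the anticoagulant arm, was 1.42-fold lower. F2, F12, Proc and Serpinc1 did not pass the test, and the F10 probes differed from each other. In all, 7 probes of F5, F7, F9, F11 and Pros1 were lower, 1 probe of F10 was higher and 5 were not called, by limma at a Benjamini-Hochberg adjusted p under 0.05 over all tested probes. Of all tested probes 26.8% were called lower and 20.4% higher in this comparison, and 47.2% in either direction, so calls were common across the array. The 8 called probes did not overlap between the groups, which held for 39.2% of all tested probes. The median difference was -0.27 over the 13 probes and -0.05 over all tested probes. With each array only centred on its median in place of the loess curve, 4 of the probes were lower (both of F7, A_51_P407323 of F5 and Pros1) and 6 were higher (F2, both of F10, F12, Proc and Serpinc1), while F9 at -0.16 and F11 at -0.17 lost the call and the other F5 probe turned to 0.27. Of all 29690 tested probes 2680 were called lower and 9863 higher under median centring. That setting raised the median of all tested probes to 0.10, a shift of 0.15 on the log2 scale, and relative to this median F7 stood at -0.57 and -0.61. Single member probes shifted more than this median, such as F2 from 0.08 to 0.63 and Proc from 0.00 to 0.55.

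**Figure D1:**
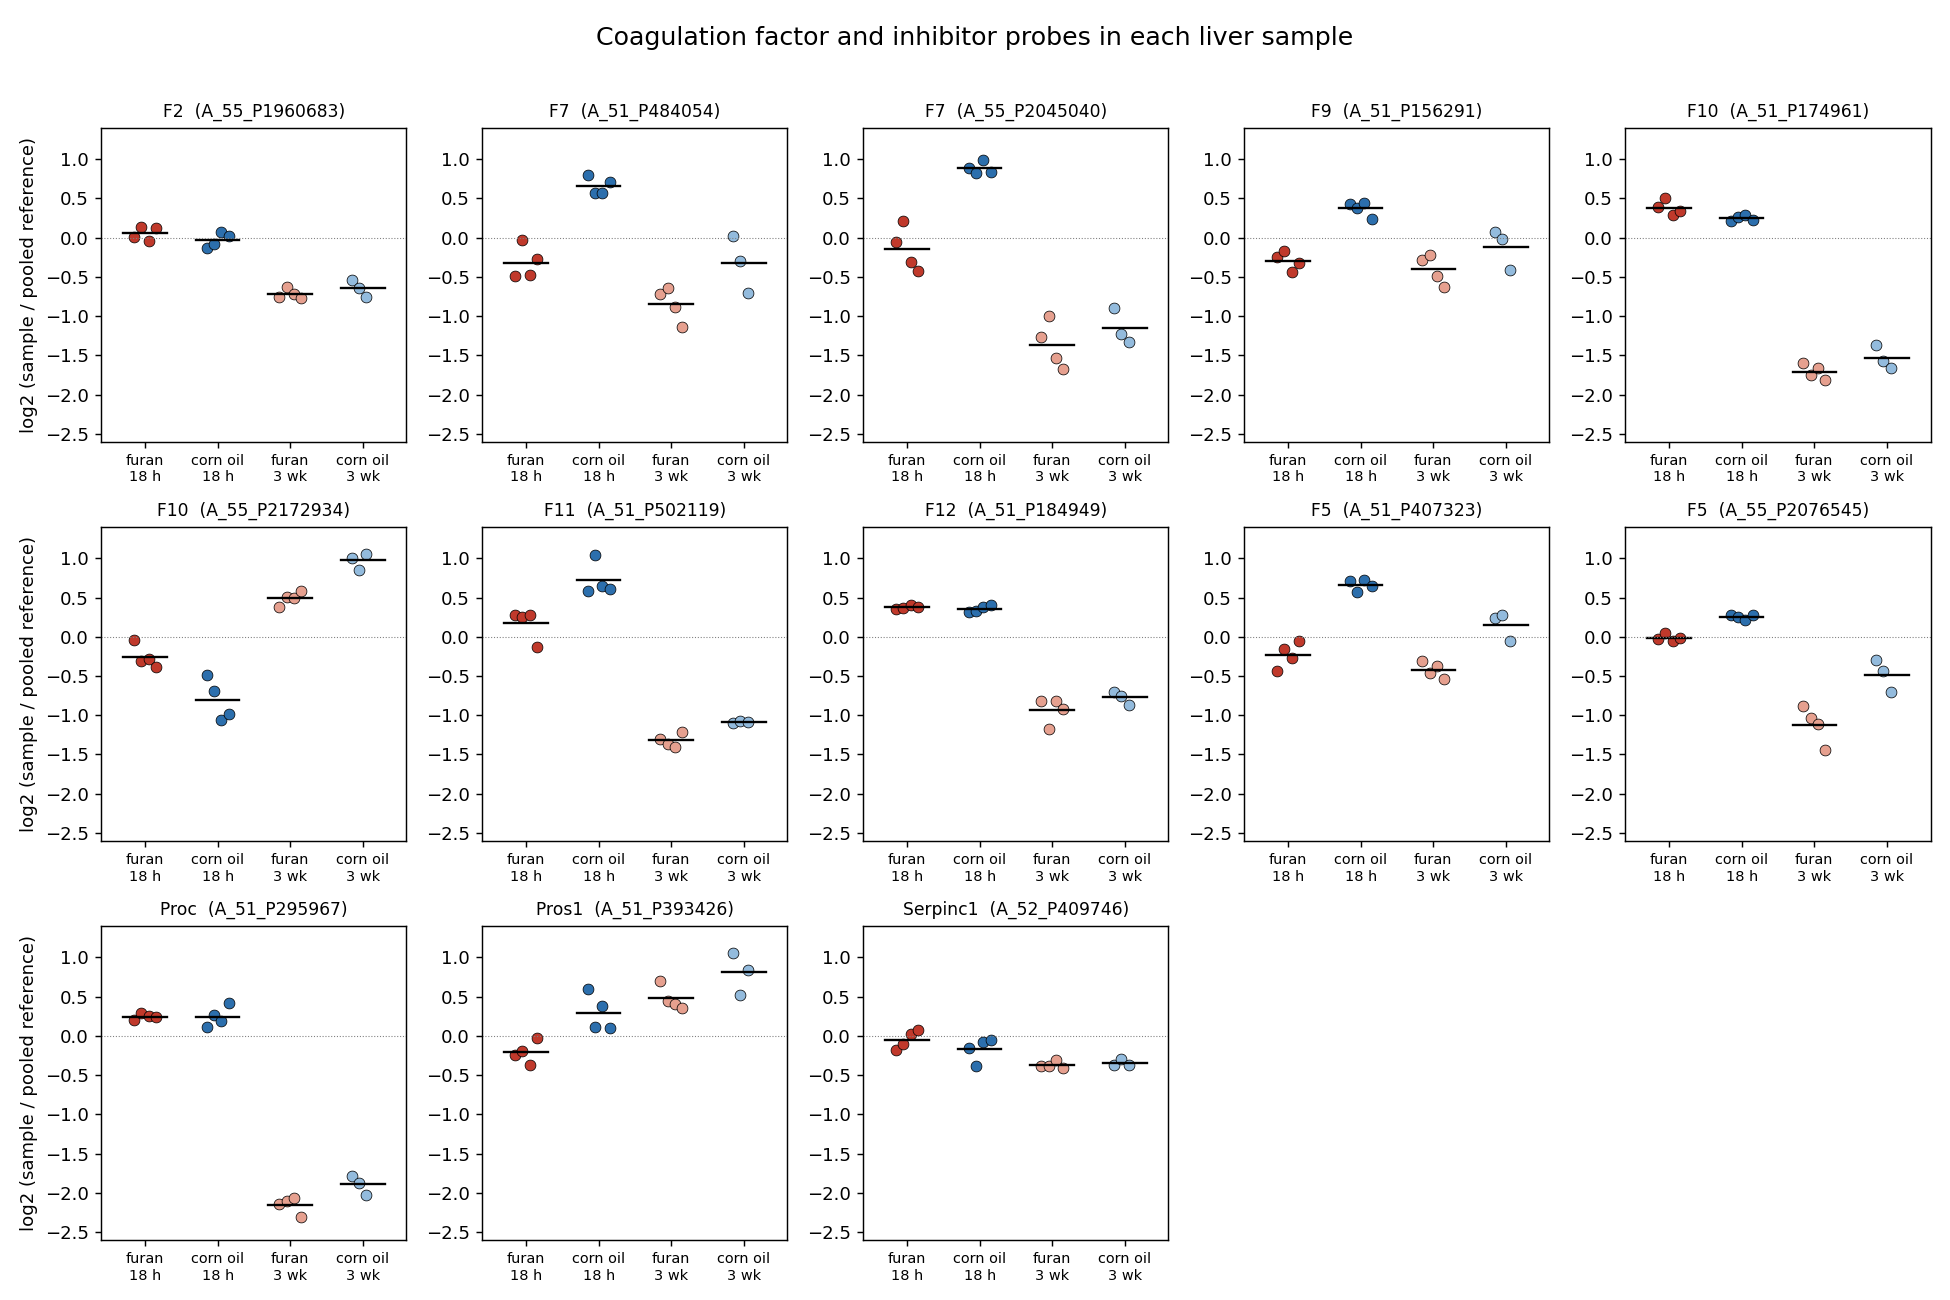
Log2 ratio of sample over pooled reference (y axis, the same range in every panel) for the 13 probes, with 1 point per liver sample and a bar at each group's mean. Corn oil arrays 2.1 and 2.2 are shown as their mean, and both F7 probes in furan livers fixed for 18 h lie below all corn oil livers of that time.

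Coagulation factor VII, encoded by F7, starts the extrinsic pathway together with tissue factor. At the F7 probe A_51_P484054 the log2 ratio was -0.49, -0.03, -0.48 and -0.28 in the furan livers 41, 42, 43 and 44 fixed for 18 h, against 0.80, 0.57, 0.57 and 0.71 in the corn oil livers 2, 3, 4 and 6. Every furan liver lay below every corn oil liver, and furan sample 42 came closest. The difference was -0.98 (SE 0.12, 1.98-fold lower, limma adjusted p = 0.000101). The second F7 probe, A_55_P2045040, read -0.05, 0.21, -0.31 and -0.42 in furan livers and 0.89, 0.82, 0.99 and 0.84 in corn oil livers, again with no overlap. Its difference was -1.03 (SE 0.11, limma adjusted p = 5.49e-05), and the 2 F7 values lay within 1 SE of each other.

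F9 encodes coagulation factor IX, the protease that is missing in haemophilia B and that activates factor X together with factor VIII. The F9 probe read -0.25, -0.17, -0.44 and -0.32 in furan livers and 0.42, 0.38, 0.45 and 0.24 in corn oil livers at 18 h. The furan livers were all below the pool and the corn oil livers all above it. The difference of -0.67 (SE 0.08) corresponded to a 1.59-fold lower level (limma adjusted p = 0.000152).

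F10 encodes factor X, whose active form cuts prothrombin, and it lies next to F7 on chromosome 8 in the RefSeq gene table. Its 2 probes, which the files assign to different RefSeq transcripts of F10, did not move together. Probe A_51_P174961 read 0.38, 0.51, 0.28 and 0.34 in furan livers and 0.21, 0.26, 0.29 and 0.23 in corn oil livers at 18 h, with overlap, and its difference of 0.13 (95% interval -0.04 to 0.31) was not called (limma adjusted p = 0.184). Probe A_55_P2172934 read -0.04, -0.31, -0.28 and -0.39 in furan livers and -0.49, -0.69, -1.07 and -0.98 in corn oil livers. It was higher in every furan liver than in any corn oil liver, by 0.55 (SE 0.14, 1.47-fold, limma adjusted p = 0.00684). On slide 2 alone the difference at this probe was 0.40 and not called (limma adjusted p = 0.135). F2, which encodes prothrombin, differed by 0.08 (95% interval -0.11 to 0.28, limma adjusted p = 0.451), with 0.00, 0.14, -0.05 and 0.12 in furan livers and -0.13, -0.08, 0.08 and 0.02 in corn oil livers.

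F11 and F12 encode the proteases of the contact pathway, in which active factor XII cuts factor XI and factor XI in turn cuts factor IX. F11 read 0.28, 0.26, 0.28 and -0.13 in furan livers and 0.59, 1.05, 0.65 and 0.61 in corn oil livers at 18 h. The groups did not overlap, but furan sample 44 lay far below the other furan livers and corn oil sample 3 far above the other corn oil livers. The difference was -0.55 (SE 0.12, 1.47-fold lower, limma adjusted p = 0.0027), and it was called whichever single sample was left out, with adjusted p up to 0.0103, but not with Agilent's log ratios (limma adjusted p = 0.0799). F12 was nearly equal, with 0.35, 0.36, 0.40 and 0.38 in furan livers and 0.32, 0.32, 0.38 and 0.40 in corn oil livers, a difference of 0.02 with a 95% interval of -0.15 to 0.19 (limma adjusted p = 0.851).

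Factor V, encoded by F5, is no protease but the cofactor that speeds the cutting of prothrombin by active factor X. The F5 probe A_51_P407323 read -0.44, -0.16, -0.27 and -0.05 in furan livers, against 0.71, 0.57, 0.72 and 0.64 in corn oil livers. All furan livers were below the pool and all corn oil livers well above it, a difference of -0.89 (SE 0.10, limma adjusted p = 6.17e-05). The other F5 probe, A_55_P2076545, read -0.03, 0.05, -0.05 and -0.02 in furan livers and 0.27, 0.26, 0.22 and 0.28 in corn oil livers, and its difference of -0.27 (SE 0.08, limma adjusted p = 0.0151) was smaller, with an opposite sign of 0.27 under median centring. Its call was also lost with Agilent's log ratios (limma adjusted p = 0.0758), the authors' values (0.0776), no filter on dim probes (0.0568) and 1 fit of all 15 samples (0.0692), and on each slide alone.

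Among the inhibitors, Pros1 encodes protein S, the cofactor of activated protein C. Pros1 read -0.25, -0.19, -0.38 and -0.02 in furan livers and 0.60, 0.11, 0.38 and 0.10 in corn oil livers at 18 h. The furan livers lay below 0 and the corn oil livers above it, although corn oil samples 3 and 6 were close to the pool, and the difference was -0.50 (SE 0.13, limma adjusted p = 0.00743). The Pros1 probe was dim, with a Cy5 signal only 3.15 to 5.33 times the background over the 16 arrays. Proc, which encodes protein C, a protease that inactivates factors V and VIII, read 0.20, 0.29, 0.25 and 0.24 in furan livers and 0.11, 0.27, 0.19 and 0.42 in corn oil livers, a difference of 0.00 with a 95% interval of -0.20 to 0.20 (limma adjusted p = 0.999). Serpinc1, which encodes antithrombin, the serpin that blocks thrombin and active factor X, read -0.18, -0.10, 0.02 and 0.08 in furan livers and -0.15, -0.39, -0.08 and -0.05 in corn oil livers, and was not called at 0.12 (95% interval -0.08 to 0.32, limma adjusted p = 0.29).

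Each of the 8 calls had the same sign on both slides, with a median difference over the 13 probes of -0.23 on slide 1 and -0.31 on slide 2. Markers of several cell types were called in the same comparison, where 26.8% of all tested probes were lower and 20.4% higher. Of the 8 hepatocyte markers 6 were lower, and their mean log2 ratio ranged from -0.42 to -0.13 in furan livers and from 0.39 to 0.58 in corn oil livers. Of 5 erythroid markers 4 were lower, with a mean between -0.68 and -0.51 in furan livers and between -0.10 and 0.10 in corn oil livers. Of 6 stellate cell markers 4 were lower, with a mean between -0.05 and 0.10 in furan livers and between 0.26 and 0.37 in corn oil livers. Of 8 sinusoidal endothelial markers 4 were lower and 1 higher, with overlapping means of 0.04 to 0.11 in furan livers and 0.10 to 0.22 in corn oil livers, and of 5 measured Kupffer cell and macrophage markers 1 was lower. Of 2 measured biliary markers 1 was lower, and so was 1 of 2 measured T and B cell markers. Of 3 measured platelet and megakaryocyte markers 1 was lower and 1 higher. The part of these markers in the differences of the clotting genes was not tested. With each sample's share of probes above background as a covariate none of the 13 probes was called. Of all 29690 tested probes only 110 were then called higher and 486 lower. Since that share did not overlap between the groups, it and furan cannot be told apart.

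The genes whose probes were lower at 18 h lie on chromosomes 1 (F5), 8 (F7 and F11), 16 (Pros1) and X (F9). RefSeq promoter windows ran from 250 bases before to 50 bases after the start site on GRCm38.p6. They were taken by symbol for 9 of the 10 genes, and Proc was left out. Those of F7, F9, F11 and F5 were picked after the values were seen, as procoagulant genes with probes called lower at 18 h. F2, F10 and F12 were not called lower. Under median centring F9, F11 and F5 probe A_55_P2076545 were not called lower either. Both strands were searched for short forms of the sites of liver factors and of the oxidative stress response: HNF4 (CAAAGTNCA), C/EBP (TTGCNNAA), HNF1 (by name, with no match in these windows), FOXA (TGTTTAC) and the antioxidant response element (TGACNNNGC). Capitals mark matches.
F7, chr8:13025784-13026083, plus strand: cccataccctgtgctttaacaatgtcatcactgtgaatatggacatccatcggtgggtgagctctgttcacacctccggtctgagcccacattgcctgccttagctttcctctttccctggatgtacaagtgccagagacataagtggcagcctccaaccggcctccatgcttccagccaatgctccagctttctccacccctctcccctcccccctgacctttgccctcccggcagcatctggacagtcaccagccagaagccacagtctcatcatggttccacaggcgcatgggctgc
F9, chrX:59999214-59999513, plus strand: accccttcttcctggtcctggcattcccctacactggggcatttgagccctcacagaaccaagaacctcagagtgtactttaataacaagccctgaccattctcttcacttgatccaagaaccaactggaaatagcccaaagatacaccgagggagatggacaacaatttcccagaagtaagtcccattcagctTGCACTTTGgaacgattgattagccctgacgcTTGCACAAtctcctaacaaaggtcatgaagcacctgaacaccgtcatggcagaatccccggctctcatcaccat
F11, chr8:45261982-45262281, minus strand: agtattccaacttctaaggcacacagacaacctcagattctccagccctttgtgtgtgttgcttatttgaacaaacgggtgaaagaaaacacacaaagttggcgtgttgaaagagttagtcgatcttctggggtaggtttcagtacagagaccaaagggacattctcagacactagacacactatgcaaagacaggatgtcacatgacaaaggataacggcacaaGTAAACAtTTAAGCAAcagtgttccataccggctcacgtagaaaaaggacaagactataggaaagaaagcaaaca
F5, chr1:164151585-164151884, plus strand: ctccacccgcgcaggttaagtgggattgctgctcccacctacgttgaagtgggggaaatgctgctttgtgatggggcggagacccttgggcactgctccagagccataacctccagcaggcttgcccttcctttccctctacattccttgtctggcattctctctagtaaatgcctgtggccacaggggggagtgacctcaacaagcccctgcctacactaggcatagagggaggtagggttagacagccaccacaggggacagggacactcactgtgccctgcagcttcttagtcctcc

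The F9 window held the HNF4 letters at position -56 from the start site, on the strand opposite to the gene, and the C/EBP letters at position -24. The F11 window held the FOXA and C/EBP letters side by side just before the start site. The windows of F7 and F5 held none of the letters searched. Of the 9 member windows 3 held the C/EBP letters (F9, F11 and Serpinc1), against 10.8% of all 32851 windows, 1 the HNF4 letters against 1.41% and 1 the FOXA letters against 3.65%, and none the antioxidant response element against 12.4%. A match describes these letters and no binding was measured.

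In livers fixed for 3 weeks none of the 13 probes passed limma at an adjusted p under 0.05, where 0.118% of all tested probes did (0.0876% higher and 0.0303% lower). At 4 probes the unadjusted p was under 0.05 (both probes of F5, F7 probe A_51_P484054 and F10 probe A_55_P2172934). All 13 differences were below 0, between -0.64 and -0.03, with a median of -0.26 against 0.00 over all tested probes. The sign depended on the scaling: 12 were below 0 in the authors' values, 11 in Agilent's log ratios and 6 under median centring. The groups did not overlap at 5 probes, those of F5, F10 probe A_55_P2172934, F11 and Proc, all lower in furan livers, where 5.85% of tested probes were so separated in that direction and 7.53% in the other.

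The 2 probes of F5 had the largest mean differences at 3 weeks with the loess values. Probe A_55_P2076545 read -0.88, -1.04, -1.11 and -1.45 in furan livers, against -0.30, -0.44 and -0.71 in corn oil livers (arrays 2.1 and 2.2 averaged first, then samples 4 and 6). The difference was -0.64 (SE 0.15, limma adjusted p = 0.132). Probe A_51_P407323 read -0.31, -0.46, -0.37 and -0.54 in furan livers and 0.24, 0.27 and -0.05 in corn oil livers, a difference of -0.57 (SE 0.14, limma adjusted p = 0.134). Every furan liver lay below every corn oil liver at both probes. A single fit of all 15 samples called both probes of F5, and so did the authors' values, while under median centring the differences shrank to -0.22 at A_55_P2076545 and -0.25 at A_51_P407323. Over all settings tried the adjusted p ran from 0.011 to 0.703 for A_55_P2076545 and from 0.0163 to 0.703 for A_51_P407323.

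F7 probe A_51_P484054 read -0.71, -0.64, -0.88 and -1.14 in furan livers and 0.02, -0.30 and -0.70 in corn oil livers at 3 weeks. Corn oil sample 6 reached into the furan range, and the difference of -0.52 (SE 0.17) was not called (limma adjusted p = 0.221). The other F7 probe read -1.26, -0.999, -1.53 and -1.67 in furan livers and -0.90, -1.22 and -1.33 in corn oil livers, with broad overlap and a difference of -0.21 (95% interval -0.57 to 0.14, limma adjusted p = 0.6). F9 read -0.29, -0.22, -0.48 and -0.63 in furan livers and 0.07, -0.02 and -0.41 in corn oil livers, and its difference was -0.29 (95% interval -0.59 to 0.02, limma adjusted p = 0.391). F10 probe A_55_P2172934, which was higher with furan at 18 h, now read 0.38, 0.51, 0.49 and 0.59 in furan livers and 1.00, 0.86 and 1.06 in corn oil livers. The furan livers were all below the corn oil livers, with a difference of -0.48 (SE 0.13, limma adjusted p = 0.167). The other members differed by less than 0.34 on the log2 scale at 3 weeks.

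Among those others, F11 read -1.30, -1.36, -1.40 and -1.21 in furan livers and -1.10, -1.08 and -1.09 in corn oil livers at 3 weeks, but it was not well above background on 3 of these arrays. Proc read -2.15, -2.11, -2.07 and -2.31 in furan livers and -1.79, -1.87 and -2.02 in corn oil livers, and Pros1 read 0.70, 0.45, 0.40 and 0.36 in furan livers and 1.06, 0.52 and 0.84 in corn oil livers. Proc did not overlap between the groups and Pros1 did, and neither was called (limma adjusted p = 0.418 and 0.409). For F2 the difference was -0.07 (95% interval -0.36 to 0.21), and F10 probe A_51_P174961 differed by -0.17 (-0.48 to 0.13). F12 differed by -0.16 (-0.48 to 0.16) and Serpinc1 by -0.03 (-0.31 to 0.25). These 4 intervals include 0.

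**Figure D2:**
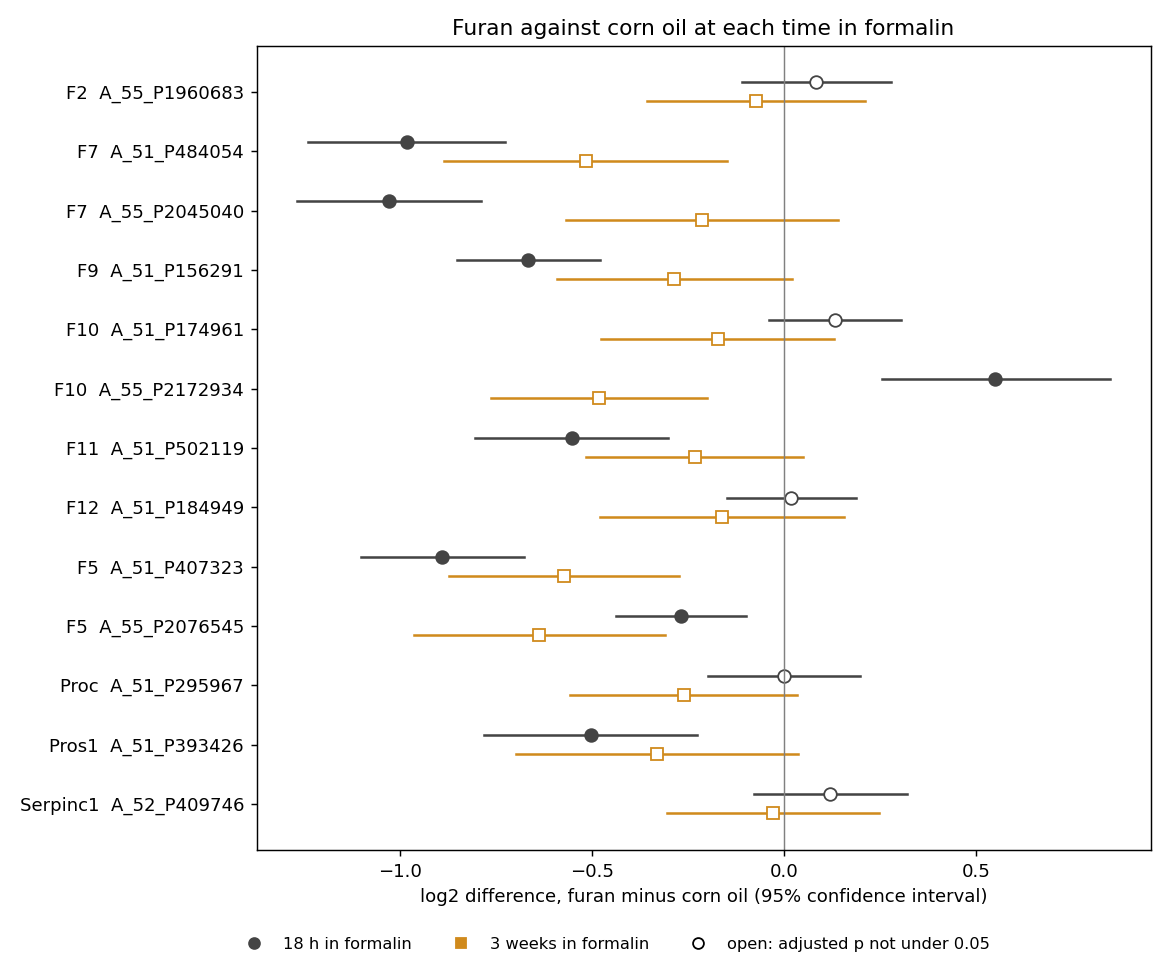
Log2 difference of furan minus corn oil with its 95% confidence interval (x axis) for each probe (y axis), at 18 h (circles) and at 3 weeks (squares), with open symbols where the adjusted p was not under 0.05. Filled symbols appear at 18 h only, 7 left of 0 and 1 right of it, and under median centring F5 probe A_55_P2076545 moves to 0.27 at 18 h and 7 of the 3-week probes lie above 0.

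Whether the furan effect differed between the times was tested directly in 1 fit of all 15 samples. It differed for 2 of the 13 probes, once upward and once downward, where 12.8% of all tested probes were called (7.82% upward and 4.93% downward). At F7 probe A_55_P2045040 the effect was -0.21 at 3 weeks and -1.03 at 18 h, a difference of 0.82 (SE 0.19, limma adjusted p = 0.0109). At F10 probe A_55_P2172934 it was -0.48 at 3 weeks and 0.55 at 18 h, a difference of -1.03 (SE 0.18, limma adjusted p = 0.00278). The other F7 probe and the other F10 probe were not called (limma adjusted p = 0.175 and 0.151). F5 and F9, which were called at 18 h and not at 3 weeks, were not shown to differ between the times, with adjusted p of 0.205 and 0.149 for the probes of F5 and 0.108 for F9. On slide 1 and slide 2 alone the difference was 0.71 and 0.79 at this F7 probe and -1.13 and -0.95 at this F10 probe, close to the values from both slides. Neither was called there, where 0 and 1 of all 29690 tested probes were. Under median centring the difference at F7 probe A_55_P2045040 was 0.60 and not called.

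After 3 weeks in formalin most of these transcripts read lower than after 18 h. Proc was 5.29-fold lower after 3 weeks than after 18 h in furan livers and 4.41-fold lower in corn oil livers, and F10 probe A_51_P174961, F11 and F12 were more than 2-fold lower in both dose groups. In furan livers 9 probes were lower, 2 were higher and 2 were not called, while 32% of all tested probes were lower, 35.1% higher and 67.1% called. In corn oil livers 10 were lower, 2 higher and 1 not called, against 30.8% lower, 28.5% higher and 59.3% called among all. The times did not overlap at 11 probes in furan livers, 9 lower and 2 higher, where 57.7% of all tested probes were so separated (27.8% lower and 29.8% higher). In corn oil livers they did not overlap at 11 probes, 10 lower and 1 higher, against 58.6% of all (30% lower and 28.6% higher). Of the hepatocyte markers 3 of 8 were lower and 2 higher in furan livers, and 3 lower and 1 higher in corn oil livers. Of the sinusoidal endothelial markers 6 of 8 were lower and 1 higher in furan livers, and 6 lower and none higher in corn oil livers. Of the stellate cell markers 4 of 6 were lower and 1 higher in furan livers, and 5 lower and none higher in corn oil livers. The part of these markers in the time differences was not tested. The median over the members was -0.77 in furan livers and -0.74 in corn oil livers, beside 0.03 and 0.00 over all tested probes.

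Proc read -2.15, -2.11, -2.07 and -2.31 after 3 weeks and 0.20, 0.29, 0.25 and 0.24 after 18 h in furan livers. In corn oil livers Proc read -1.79, -1.87 and -2.02 after 3 weeks and 0.11, 0.27, 0.19 and 0.42 after 18 h. The 2 times stood far apart in both dose groups, with differences of -2.40 (SE 0.10, limma adjusted p = 1.44e-11) in furan livers and -2.14 (SE 0.11, limma adjusted p = 7.72e-11) in corn oil livers. F10 probe A_51_P174961 read -1.60, -1.75, -1.66 and -1.82 after 3 weeks and 0.38, 0.51, 0.28 and 0.34 after 18 h in furan livers. In corn oil livers it read -1.36, -1.57 and -1.67 after 3 weeks and 0.21, 0.26, 0.29 and 0.23 after 18 h. Its differences were -2.09 (SE 0.09) in furan livers and -1.78 (SE 0.10) in corn oil livers.

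The other F10 probe, A_55_P2172934, went the opposite way. It was higher after 3 weeks by 0.74 (SE 0.13, limma adjusted p = 6.77e-05) in furan livers and by 1.78 (SE 0.14, limma adjusted p = 1.02e-08) in corn oil livers. Pros1 was the only other member to be higher, by 0.69 (SE 0.14) in furan livers and 0.51 (SE 0.15) in corn oil livers, and under median centring these became 0.21 and 0.04 and were not called. In corn oil livers Pros1 overlapped between the times, and without corn oil sample 2 of the 3-week group its adjusted p was 0.0561.

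F11 was lower, with a log2 difference of -1.49 (SE 0.12) in furan livers and -1.81 (SE 0.12) in corn oil livers, and so was F12, at -1.31 (SE 0.10) in furan livers and -1.13 (SE 0.10) in corn oil livers. F2 differed by -0.77 (SE 0.09) in furan livers and -0.62 (SE 0.10) in corn oil livers. The 2 probes of F7 and of F5 gave unequal values: F7 probe A_55_P2045040 differed by -1.22 in furan livers and -2.04 in corn oil livers, and F7 probe A_51_P484054 by -0.52 in furan livers and -0.99 in corn oil livers, all called. F5 probe A_55_P2076545 differed by -1.11 in furan livers and -0.74 in corn oil livers, both called, while probe A_51_P407323 differed by -0.19 in furan livers (limma adjusted p = 0.132) and -0.51 in corn oil livers (called). F9 was not called at -0.11 in furan livers and was lower at -0.49 in corn oil livers (SE 0.11, limma adjusted p = 0.0011). Serpinc1 was lower in furan livers at -0.32 (SE 0.10, limma adjusted p = 0.00655), and at -0.17 in corn oil livers it was not called. Median centring moved the median of all tested probes by -0.32 in furan livers and -0.24 in corn oil livers, turned no sign among the 13 probes, and added calls in furan livers for F9 at -0.90 and F5 probe A_51_P407323 at -0.81. All calls of the time comparisons had the same sign on both slides. With the share of probes above background as a covariate, 6 probes were called in furan livers and 6 in corn oil livers. Of all 29690 tested probes 2134 were then called higher and 2341 lower in furan livers, and 2507 and 3155 in corn oil livers.

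**Figure D3:**
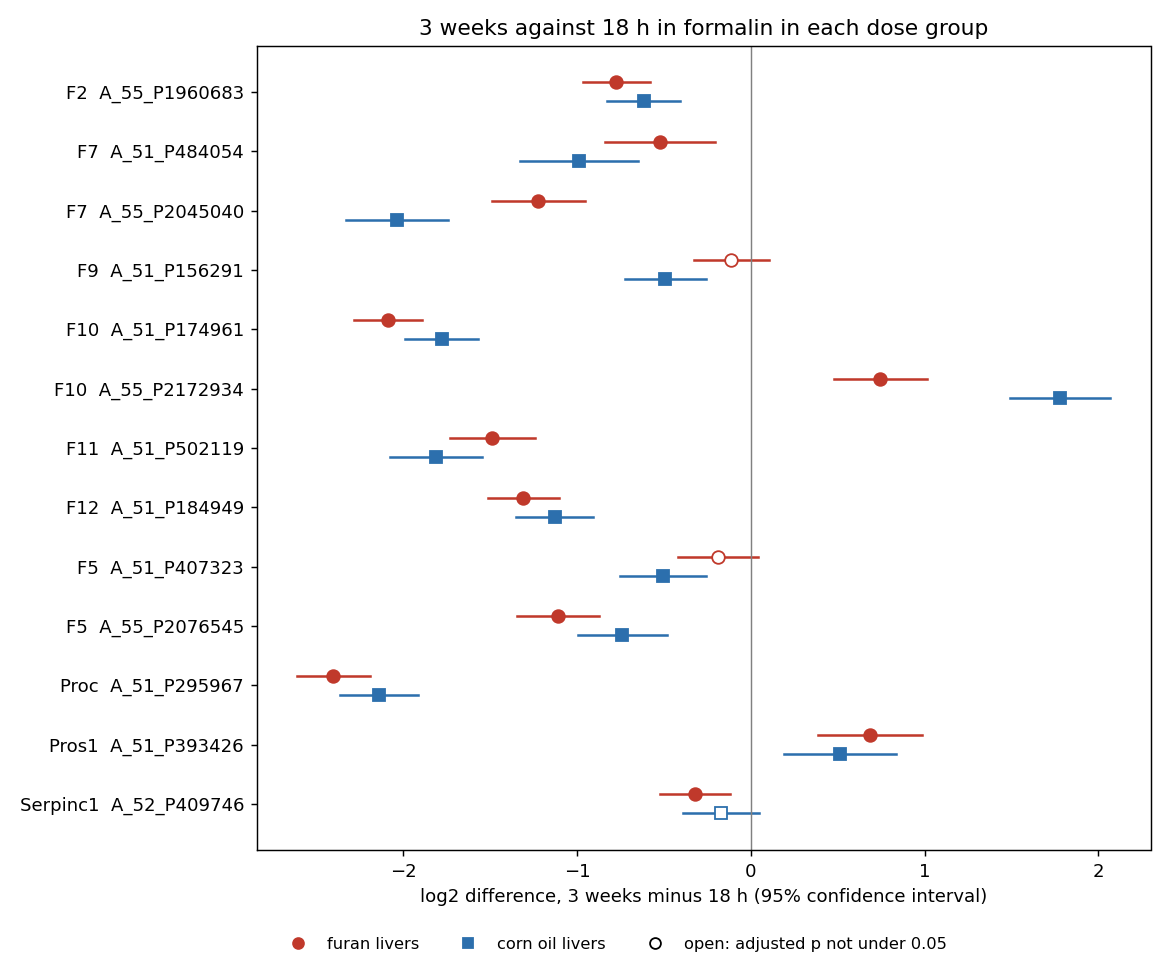
Log2 difference of 3 weeks minus 18 h in formalin with its 95% confidence interval (x axis) for each probe (y axis), in furan livers (circles) and corn oil livers (squares), with open symbols where the adjusted p was not under 0.05. F10 probe A_55_P2172934 and Pros1 lie right of 0 and the other probes left of it, with Proc at -2.40 in furan livers and -2.14 in corn oil livers, and Pros1 falls to 0.21 and 0.04 under median centring.

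Across the 4 groups the members fell into a few orders of mean level. A first set of 5 probes held F2, F10 probe A_51_P174961, F12, Proc and Serpinc1. These ran from furan at 18 h through corn oil at 18 h and corn oil at 3 weeks down to furan at 3 weeks. With the loess values furan against corn oil was called in none of them at either time. For Serpinc1 the step between the times in corn oil livers was not called either. Under median centring all 5 were called higher with furan at 18 h. The means of Proc at 18 h were nearly equal, 0.247 with furan and 0.246 with corn oil. The next 4 probes (both of F7, F11 and F5 probe A_55_P2076545) were highest in corn oil at 18 h, followed by furan at 18 h, corn oil at 3 weeks and furan at 3 weeks. F9 and F5 probe A_51_P407323 were also highest in corn oil at 18 h, but there corn oil at 3 weeks lay above furan at 18 h. Pros1 and F10 probe A_55_P2172934 were highest in corn oil at 3 weeks, followed by furan at 3 weeks.

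Within groups, over the deviations of 15 samples from their group means, the probes of F7 correlated at r = 0.72, those of F5 at 0.599 and those of F10 at -0.227, and F9 correlated with the probes of F7 at 0.82 and 0.807. Other pairs ran as high, such as F7 probe A_51_P484054 with F5 probe A_55_P2076545 at 0.831, and F11 with Serpinc1 stood at -0.818. These values describe arrays that share 1 reference and scan, and no test was made. Likeness to other genes was taken over all 15 samples without removing group means, so differences between the groups enter these values. Among 13042 genes, each at its brightest probe, the gene most alike over the 15 samples was Serping1 for F7 (r = 0.976), Tymp for F9 (0.974), Csnk2a2 for F5 (0.974), Atp5e for F2 (0.984) and Tprkb for F11 (0.99). For F12 it was Rps15 (r = 0.995), for Proc Naca (0.998), for Pros1 Fubp3 (0.935), for Serpinc1 Sap30l (0.922), and for F10, whose brightest probe was A_55_P2172934, Rhox8 (0.99).

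Of 33 other genes of clotting and fibrinolysis 29 were measured, and at 18 h 15 were lower and 7 higher with furan, with a median of -0.28. Of all tested probes 26.8% were lower and 20.4% higher. Under median centring 5 of the 29 were lower and 11 higher, beside 2680 lower and 9863 higher of all 29690 tested probes. The deepest differences were in Hrg (-1.24), the histidine-rich glycoprotein of plasma, in Vkorc1 (-1.14), the enzyme that recycles vitamin K and the target of warfarin, in Serping1 (-1.13), the C1 inhibitor that blocks the contact proteases, and in Proz (-0.76), the protein Z gene next to F10. Hrg averaged -0.13 ± 0.17 in furan livers and 1.11 ± 0.10 in corn oil livers (SD, n = 4 each). Another probe of Vkorc1 differed by 0.14, and another of Serping1 by -1.51. Among the highest were Lman1 (0.65) and Mcfd2 (0.43), which carry factors V and VIII out of the endoplasmic reticulum, and Fgg (0.63), a chain of fibrinogen. Vkorc1, Serping1 and Hrg were also lower and Lman1, Mcfd2 and Fgg also higher under median centring, while Proz at -0.23 was not called.

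By group, 4 of the 5 contact pathway genes were lower at 18 h (Hrg, Serping1, Klkb1 and Kng2), the group to which F11 and F12 belong. Of all tested probes 26.8% were lower. Kng1 was not called at 0.14, and its other probe differed by -0.64. Of 4 fibrinogen and fibrin genes 3 were lower and 1 was higher, although Fga, lower at -0.48, had another probe at 0.87. Of 3 initiation and cofactor genes 2 were lower (F8, and F3 just inside the threshold), and of 8 other anticoagulant genes 2 were lower and 3 higher. In the vitamin K cycle and secretion group 3 were lower (Vkorc1, Ggcx and Vkorc1l1) and 2 higher (Lman1 and Mcfd2). At 3 weeks none of the 29 was called by limma at an adjusted p under 0.05, with a median of -0.04. Of all tested probes only 0.118% were called at that time. Among those with the smallest p there were Procr (0.65, limma adjusted p = 0.23), the endothelial protein C receptor, and Kng1 (0.35, limma adjusted p = 0.27), a kininogen whose other probe differed by -0.01. Procr was well above background on 9 of the 16 arrays.

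Of 8 liver transcription factors 4 were higher at 18 h and none lower: Cebpb (0.91), Hnf4a (0.88), Stat3 (0.56) and Nr1h4 (0.36). Of all tested probes 20.4% were higher and 26.8% lower. HNF4 and C/EBP factors are known regulators of clotting factor genes in hepatocytes. Hnf4a averaged 0.29 ± 0.08 in furan livers and -0.58 ± 0.08 in corn oil livers (SD, n = 4 each). Another probe of Stat3 differed by -0.37. The 4 were also higher under median centring, where 7 of the 8 were called higher, beside 9863 of all 29690 tested probes. At 3 weeks none was called by limma, where only 0.118% of all tested probes were.

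**Figure D4:**
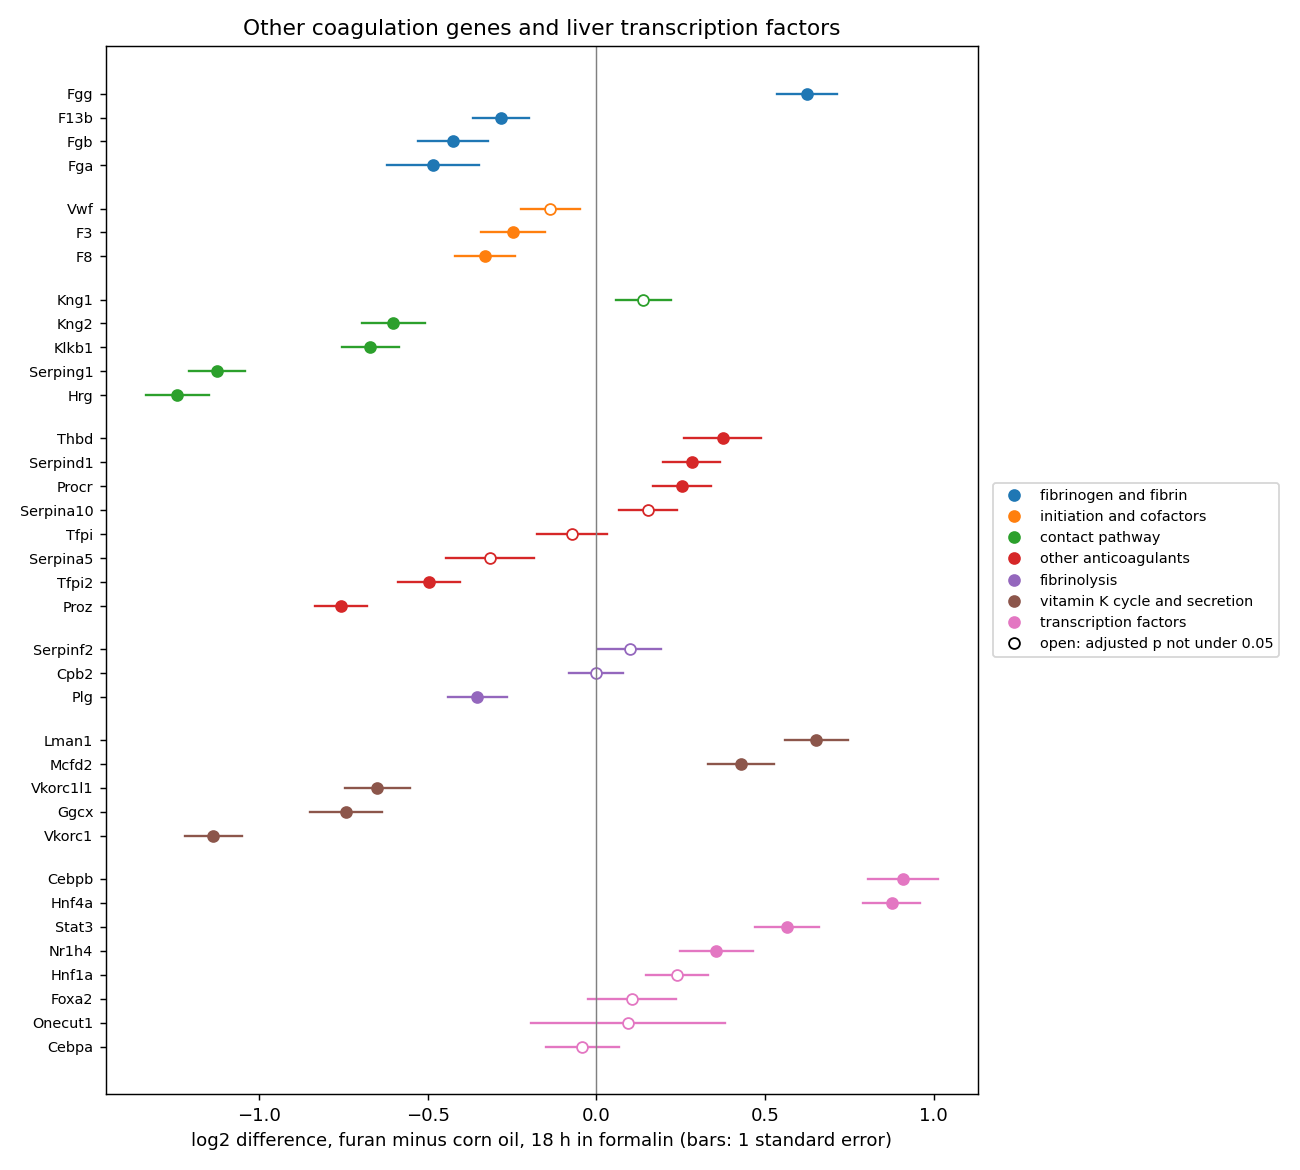
Log2 difference of furan minus corn oil at 18 h in formalin (x axis, bars of 1 standard error) for 28 of the 29 other clotting genes and 8 transcription factors (y axis, coloured by list), each at its brightest tested probe, with open symbols where the adjusted p was not under 0.05. Hrg at -1.24 lies furthest left and Cebpb at 0.91 furthest right, and under median centring 5 of the 29 clotting genes are lower and 11 higher.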

How the data were processed

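RNA from formalin-fixed, paraffin-embedded mouse livers was measured on 2-colour Agilent arrays, with each sample in Cy5 and the pooled reference in Cy3 and no dye swap. The deposited scanner files hold spot intensity values, and per the file headers they were made with Agilent Feature Extraction 11.0.1.1 on a design of build mm9. Agilent's own log10 ratio of red over green, also in the deposited files, was converted to log2 as an alternative. The authors' deposited value table holds log2 ratios, which correlated with those computed here at r between 0.918 and 0.991 over probes, with slopes between 1.14 and 1.25 and column medians between -0.01 and 0.02. How the authors normalized that table is not given in the sources used here.

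Median spot intensities were background-corrected by normexp with an offset of 50 and normalized within arrays by loess in limma 3.58.1 (R 4.3.3). Control spots and outlier spots were left out and spots of 1 probe averaged. A probe was tested if its Cy5 signal was flagged well above background on 3 or more arrays of any group, which kept 29690 of 55681. Arrays 2.1 and 2.2 carry 1 sample number, were taken for the same animal and entered as their mean, giving 15 samples. Limma's moderated test was run with slide as a term, with Benjamini-Hochberg adjustment over all tested probes and a threshold of 0.05. The 18 h and 3-week comparisons were fitted on their own samples, and the difference between times and the time comparisons on all 15. The labels do not say more on how samples were drawn, so p-values measure the spread between these samples. The number of arrays limits the precision. The fits were tested on simulated data.

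Probes were named through RefSeq accessions, which matched 27235 probes to a symbol and left 28446 without one. The genes and lists were chosen with earlier results of these data known. Every member probe is named. Of the other clotting genes, each at its brightest tested probe, the 4 highest and 4 lowest called differences are named, or the 3 with the smallest p where none was called, except for 1 gene that is counted but not reported here, and members of small groups are named beside their counts after their values were seen. Called transcription factors are named, and for each member the 1 gene with the highest Pearson r. Alternatives covered background correction, normalization, filter, probe choice, slide, variance model, array weights, the share above background, threshold, left-out samples, the reading of arrays 2.1 and 2.2, the samples fitted together and the sample number as a block. Figures were drawn with matplotlib 3.10.9.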

Additional observations from a re-analysis of the deposited data

Results flagged for a closer look

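In livers fixed for 18 h, the F11 probe A_51_P502119 had 1 furan and 1 corn oil liver far from the rest of their groups. Furan sample 44 read -0.13, and its gap to the nearest furan liver was 0.947 of the group's range. Corn oil sample 3 read 1.05, with a gap of 0.858 of the range. Both gaps exceed Dixon's 95% critical value for groups of 4, which chance alone passes in about 1 group in 20, and 39 groups were examined. The furan difference of F11 was -0.48 without furan sample 44 and -0.47 without corn oil sample 3, and called both times (limma adjusted p = 0.0103 each).

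The furan effect differed between the times at F7 probe A_55_P2045040 by 0.82 (limma adjusted p = 0.0109) and at F10 probe A_55_P2172934 by -1.03 (limma adjusted p = 0.00278), both as 3 weeks minus 18 h. The other probes of F7 and F10 were not called in this test. Of all tested probes 12.8% were called in it (7.82% upward and 4.93% downward). Neither call held on slide 1 or slide 2 alone, where 0 and 1 of all tested probes were called. The F7 call was also lost under median centring and at a threshold of 0.01.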

How the results depend on the processing

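At 18 h 8 of 13 probes were called, 4 on slide 2 alone and 0 with the share of probes above background as a covariate, and every sample left out in turn gave 8. Over all 29690 tested probes the 18 h calls numbered 6056 higher and 7969 lower, 2973 and 4076 on slide 2 alone, and 110 and 486 with the share covariate. F5 probe A_55_P2076545 turned to 0.27 under median centring and kept its direction and call in 16 of 25 settings. At 3 weeks none was called and leave-one-out gave 0 throughout, but 3 were called without background subtraction (both of F5 and F10 probe A_55_P2172934), 2 with the authors' values and 2 in 1 fit of all 15 samples (both of F5), and 1 with arrays 2.1 and 2.2 as separate samples. Over all tested probes the 3-week calls numbered 26 higher and 9 lower, 204 and 245 without background subtraction, 666 and 633 in the joint fit, and 0 and 0 without corn oil sample 6. The difference between times was called at 2 probes, at 1 under median centring, with 1 probe per gene or at a threshold of 0.01, at 0 on slide 1 or slide 2 alone, where 0 and 1 of all tested probes were called, and at 2 to 3 with samples left out. In furan livers the time in formalin was called at 11 probes, and at 6 with the share covariate and 11 to 12 with samples left out. In corn oil livers it was 12, with 6 and 11 to 12 under the same changes. Over all tested probes the share covariate left 2134 higher and 2341 lower in furan livers, and 2507 and 3155 in corn oil livers. The cause of these shifts was not tested. Correlations of same-numbered samples lay between -0.218 and 0.160. Sample numbers 2 and 4 matched their own number best and the other numbers did not. With so few samples per group this cannot decide whether equal numbers mark the same animals, and the main time tests treated the samples as unpaired. With the replicate block the calls were 2 for the difference between times, 11 in furan livers and 11 in corn oil livers. Low signal over background limits F11 at 3 weeks and Pros1 at both times.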
